A study of Homo sapiens with 4 samples.

Results

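Counts were examined here for 10 features of the deposited table that form 5 pairs of a cell death gene and a feature on the opposite DNA strand, out of 59385 features in all. The pairs were TNFRSF10A with TNFRSF10A-AS1, BCL2L11 with MIR4435-2HG, BMF with BMF-AS1, BCL2L1 with ABALON, and BAK1 with GGNBP1, and all 10 names were found in the table. They were picked by name with the counts of these same libraries known, both the excess of the opposite features and the values with and without treatment, so the comparison of treated with control libraries is given as a description and no test is read from it. The RNA came from C4-2 cells, a castration-resistant human prostate cancer line derived from LNCaP, here a single line. Control cells were kept in RPMI medium, and treated cells in RPMI with 50 mM BHB (β-hydroxybutyrate, the main circulating ketone body), both for 3 days; the cells were maintained with fetal bovine serum and antibiotics. Each group had 2 libraries, made from total RNA with a stranded kit, and the labels do not say whether they came from separate cultures, so their spread may be technical.

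Mitochondrial apoptosis is set by the BCL2 family. BAK1 encodes an effector that perforates the outer mitochondrial membrane, and BCL2L1 encodes the guardian BCL-xL (and, by splicing, a shorter pro-death form). BCL2L11 and BMF encode BIM and BMF, which share with the family only the BH3 helix with which they bind the guardians. TNFRSF10A encodes a death receptor on the cell surface that is engaged by the ligand TRAIL and starts apoptosis through caspase-8. Among the opposite features, ABALON (also described as INXS) is a noncoding RNA of the BCL2L1 locus, MIR4435-2HG is a long noncoding host gene whose mouse counterpart, Morrbid, is known for restraining Bcl2l11 in myeloid cells, and GGNBP1 is annotated as a pseudogene.

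Library totals were 2233711 to 2565080 counts, which sets a count of 0 to an upper limit of 1.17 to 1.34 counts per 1000000 counts of the library (CPM) for counting error alone. The spread between the controls depended on the kind of feature. On the scale of edgeR's trimmed mean of M values (TMM), the median log2 difference of control replicate 1 over control replicate 2 was 0.40 for 6360 tested protein-coding genes and −0.43 for 401 tested antisense features, while between the BHB libraries it was −0.02 and 0.0041. All 7 luminal prostate markers on a fixed list passed the filter on low counts, among them KRT8 with 9221 to 12028 counts and HOXB13 with 17 to 94. Of markers of other cells, 3 of 4 basal genes, 4 of 5 fibroblast genes, 2 of 4 endothelial genes and 4 of 4 leukocyte genes were at 0 in every library. The summed level of each of these lists was at most 5.28 CPM in any library. In bulk RNA, fewer cells expressing a gene and less RNA per cell cannot be told apart.

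The pairs differ in which part of the cell death gene faces the other strand. Positions are those of GENCODE release 29 (GRCh38), with start and end counted from 1. BCL2L1 lies on the minus strand of chromosome 20 (31664452 to 31723989), and the only exon of ABALON (31721507 to 31723409) faces 1424 of its exonic bases, 564 of them coding and the rest mainly of the 5′ untranslated region. ABALON also faces all 250 bases before the inner of the RefSeq starts of BCL2L1 (31722869 to 31723118, GRCh38.p14), but none of the 250 before the outer one. BAK1 (chromosome 6, 33572547 to 33580293, minus strand) shares only 91 exonic bases with GGNBP1 (33540046 to 33589026), all of them coding. In the other pairs the shared bases hold no coding sequence and lie in the last exon. BMF-AS1 (chromosome 15, 40088832 to 40089386) lies over the 3′ untranslated region of BMF (40087890 to 40108892, minus strand) with all 461 of its exonic bases. TNFRSF10A-AS1 (chromosome 8, 23189279 to 23190675) faces 224 bases at the end of TNFRSF10A (23190452 to 23225126, minus strand), which is 35.2% of its exons. MIR4435-2HG (chromosome 2, 111036776 to 111523376, minus strand) faces 727 bases of the last exon of BCL2L11 (111119378 to 111168447), 5.55% of its exons. The gene body of MIR4435-2HG also overlaps that of ACOXL, with no exon shared.

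**Figure D1:**
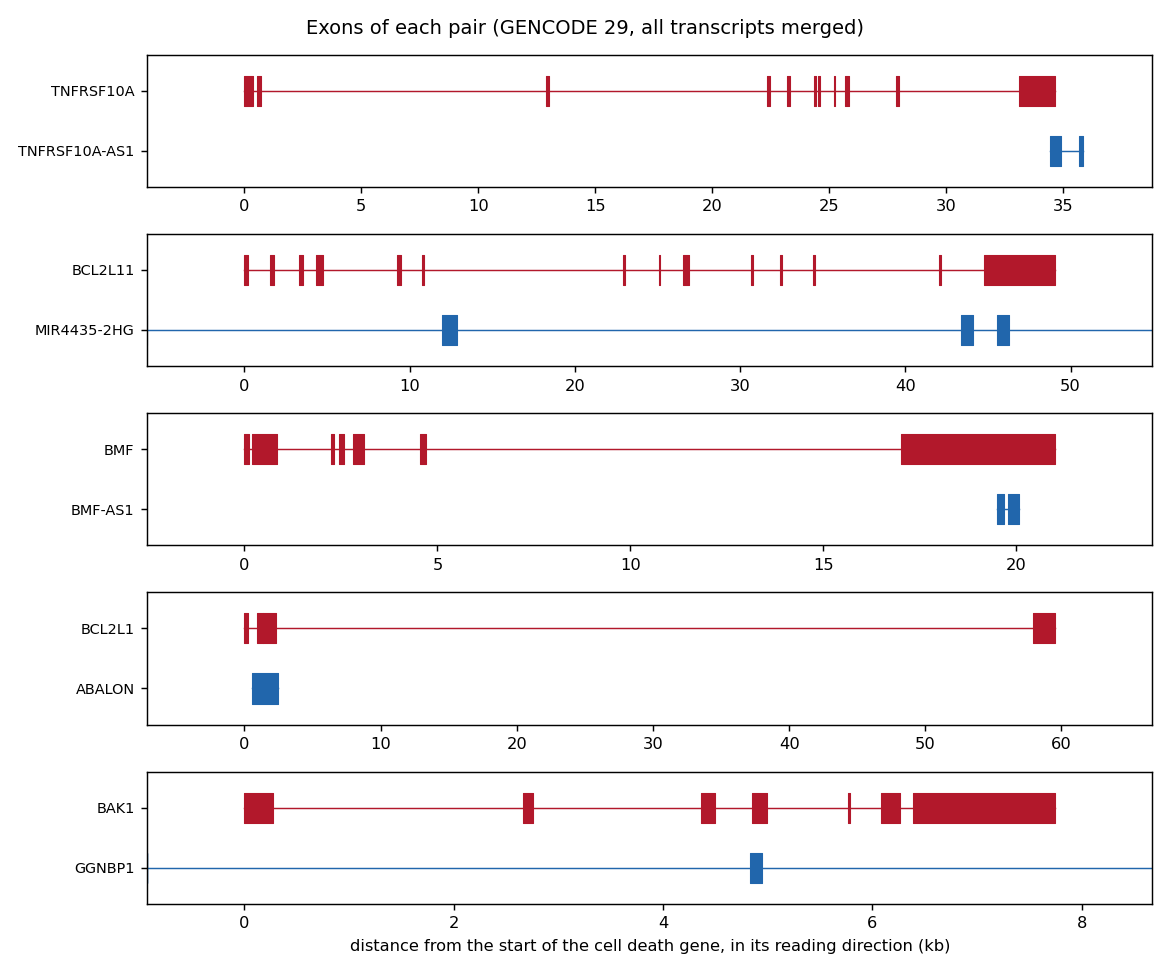
Exons (boxes) of each cell death gene (red) and of the feature on the other strand (blue) along distance in kb from the start of the cell death gene, in its reading direction; lines join exons, and MIR4435-2HG and GGNBP1 run beyond the panels. ABALON sits near the start of BCL2L1, GGNBP1 touches an internal exon of BAK1, and TNFRSF10A-AS1, BMF-AS1 and an exon of MIR4435-2HG sit over the last exon of their partners.

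For BCL2L1 and BAK1 the facing exons cover the bases that encode the BH3 core, the segment through which family members grip each other. The core was found by translating the longest complete coding sequence of each gene and searching for a leucine, any 3 residues, a glycine or alanine, and an aspartate, which occurred 1 time in each of the 4 proteins. The leucine is residue 78 of 211 in BAK1, 90 of 233 in BCL2L1, 152 of 198 in BCL2L11 and 137 of 184 in BMF. The sequences below, 66 bases each from GENCODE release 29 transcripts, are shown because they are the functional stretch that BAK1 and GGNBP1, and BCL2L1 and ABALON, hold in common on opposite strands; capitals mark the 18 bases that encode the core, or their complement.
BAK1 (chr6:33575375-33575440, minus strand): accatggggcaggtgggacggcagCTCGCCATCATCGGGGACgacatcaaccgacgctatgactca
GGNBP1 (chr6:33575375-33575440, plus strand): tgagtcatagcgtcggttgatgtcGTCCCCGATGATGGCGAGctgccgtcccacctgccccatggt
BCL2L1 (chr20:31721910-31721975, minus strand): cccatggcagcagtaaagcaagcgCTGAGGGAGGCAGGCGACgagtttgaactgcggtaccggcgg
ABALON (chr20:31721910-31721975, plus strand): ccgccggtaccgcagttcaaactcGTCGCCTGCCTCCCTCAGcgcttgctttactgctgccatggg
BCL2L11 (chr2:111150079-111150144, plus strand): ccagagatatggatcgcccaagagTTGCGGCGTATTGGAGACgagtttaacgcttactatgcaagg
BMF (chr15:40104183-40104248, minus strand): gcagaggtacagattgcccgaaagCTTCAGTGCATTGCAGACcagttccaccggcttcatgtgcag
The BH3 cores of BCL2L11 and BMF lie 14784 and 14821 bases away from the nearest base that faces an exon of MIR4435-2HG or BMF-AS1.

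The overlaps depend on the gene model. The exon length in the deposited table equals that of release 29 for BMF, BMF-AS1, ABALON, BAK1, GGNBP1 and TNFRSF10A-AS1. It is 34231 bases against 13094 for MIR4435-2HG and 4197 against 3314 for BCL2L1, so those counts rest on other models. Smaller differences were found for TNFRSF10A, at 2927 against 2951, and for BCL2L11, at 6656 against 6658. In RefSeq, neither MIR4435-2HG (111195866 to 111495161) nor GGNBP1 (33583699 to 33589026) reaches its partner.

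In all 5 pairs and all 4 libraries more counts were listed under the opposite feature than under the cell death gene. Summed over the pairs, the opposite features held 2106 and 2167 counts without BHB and 2152 and 2065 with it, replicate 1 first as in every such pair of values here. The cell death genes held 94 and 32 against 54 and 60. The first sum moved little as raw counts. Per 1000000 counts of the library it was 821 and 968 without BHB and 947 and 924 with it. ABALON held most of it in every library, so it says little of the other opposite features. The second sum was highest in control replicate 1, lowest in control replicate 2 and between them in both BHB libraries. Each of the 5 cell death genes had more counts in control replicate 1 than in control replicate 2. Control replicate 1 also had the larger library total, 2565080 against 2237634 counts. In TMM-scaled values 62.0% of tested protein-coding features were higher in it too, so this order was common among coding genes. The strand setting used for counting is not given in the sources used here, so counts listed under a name need not come from the RNA of that name, and which strand they came from was not tested.

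Per kilobase of exon in the table, the 10 features ranked from ABALON to BMF. ABALON averaged 694 counts per kb over the 4 libraries (624 to 723) and stood above TNFRSF10A-AS1 at 305 (221 to 416) in every library. BMF-AS1 at 126 (97.6 to 148) and GGNBP1 at 103 (84.1 to 121) came next, and their ranges overlapped. TNFRSF10A at 13.8 (7.52 to 20.2) and MIR4435-2HG at 10.8 (9.49 to 12.3) overlapped too, which made TNFRSF10A the cell death gene with the highest count per kb of the 5. BCL2L1 followed at 2.68 (1.43 to 4.05), BAK1 at 1.36 (0.904 to 2.71), BCL2L11 at 0.639 (0 to 1.20) and BMF at 0.184 (0 to 0.734), each overlapping its neighbour. By plain count ABALON, with a mean of 1321 counts, ranked 292 among all features of the table.

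**Figure D2:**
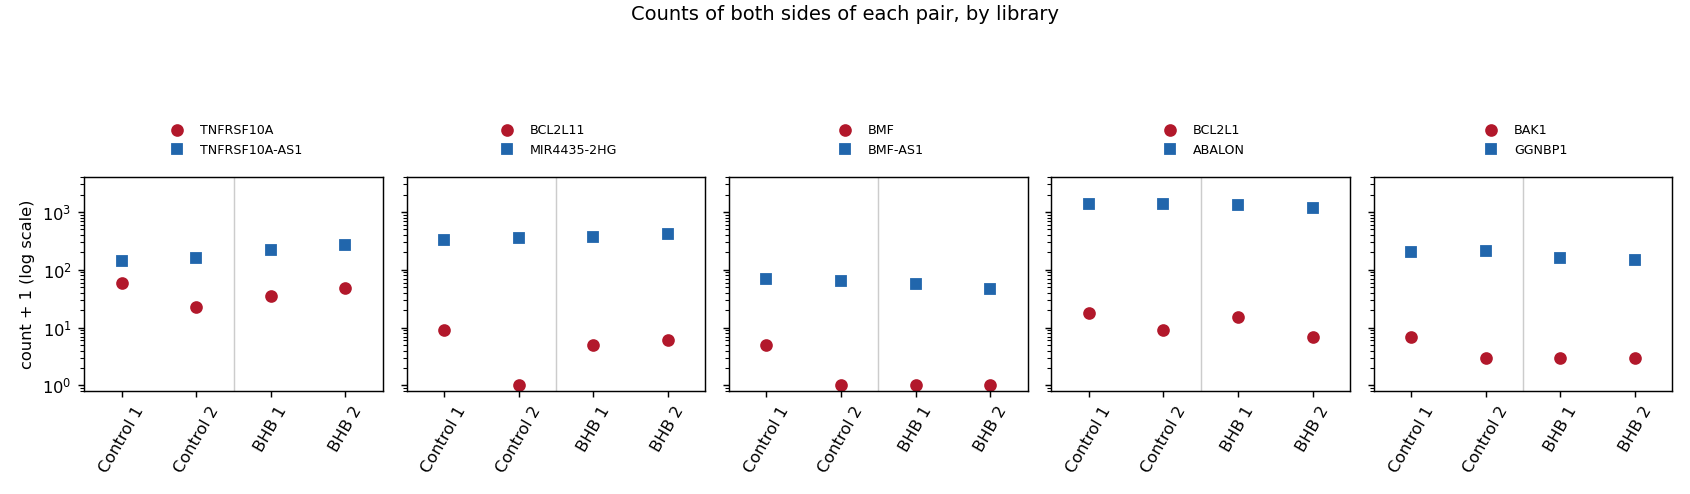
Count plus 1 on a log scale in each of the 4 libraries for both sides of each pair (red circles, cell death gene; blue squares, opposite feature), with 1 point per library and no averaging. The blue squares lie above the red circles in every library, and the red circles of TNFRSF10A, BCL2L11, BMF and BAK1, but not of BCL2L1, lie farther apart between the control than between the BHB libraries.

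By plain count the TRAIL receptor pair was the most balanced, with 4.80 counts of the antisense feature per count of the receptor gene against 58.0 to 117 in the other pairs. Per kb of exon its ratio was 22.1, above the 17.0 of BCL2L11 and MIR4435-2HG, whose ratio is 44.3 with the exon lengths of release 29. TNFRSF10A, the receptor gene itself, had 59 and 22 counts in control libraries against 34 and 47 under BHB, so both BHB values lay between the controls. TNFRSF10A-AS1 had 141 and 157 counts in control libraries against 215 and 265 under BHB, and both BHB libraries lay above both controls. In TMM-scaled CPM the antisense feature stood at 65.4 ± 20.6 without and 107 ± 17.3 under BHB (SD, n = 2). Its log2 fold change was 0.71 (SE 0.31). The receptor gene stood at 16.2 ± 7.11 and 18.1 ± 4.35 (SD, n = 2), and its fold change on that scale was 0.14 (SE 0.49). TNFRSF10A-AS1 took 70.5% of the pair's counts in control replicate 1 (95% Wilson interval 63.8 to 76.4), 87.7% in control replicate 2 (82.1 to 91.7), 86.3% in BHB replicate 1 (81.5 to 90.1) and 84.9% in BHB replicate 2 (80.5 to 88.5). Control replicate 1 alone stood apart, so the share of the antisense feature within the pair was not separated by treatment. The log2 fold change of TNFRSF10A-AS1 ranged from 0.41 without control replicate 1 to 1.11 without control replicate 2. Such fits leave 1 control library and so no spread between controls, and no test is read from them.

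For the guardian gene BCL2L1 the counts were 17 and 8 in control libraries against 14 and 6 under BHB, and the groups overlapped. ABALON, on the other strand, had 1373 and 1375 counts in control libraries against 1348 and 1188 under BHB. It made up between 98.8% and 99.5% of the pair's counts in the 4 libraries. By library totals its controls, which had almost the same count, stood at 535 and 614 CPM and the BHB libraries at 593 and 532, the second of these just below both controls. With TMM the controls lay farther apart, at 495 and 701 CPM, and both BHB values lay between them at 594 and 534. The log2 fold change was −0.08 (SE 0.26) for ABALON and −0.21 (SE 0.83) for BCL2L1. For ABALON it turned from −0.32 without control replicate 1 to 0.23 without control replicate 2. With a standard error this large, even a 2-fold change of BCL2L1 was not detectable in these libraries.

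BAK1, the effector gene, had 6 and 2 counts in control libraries against 2 and 2 under BHB, too few to pass the filter. GGNBP1 had 199 and 210 counts in control libraries against 159 and 146 under BHB, and both BHB libraries lay below both controls. Its TMM-scaled level was 89.4 ± 24.97 CPM without and 67.9 ± 3.13 CPM under BHB (SD, n = 2). The log2 fold change was −0.39 (SE 0.29). Without control replicate 1 it was −0.67, and without control replicate 2 it was −0.04. The bases shared with BAK1 are 5.24% of the exons of GGNBP1, and the table does not show where along those exons its reads fell.

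The BH3-only genes were nearly without counts. BCL2L11 (BIM) had 8 and 0 counts in control libraries against 4 and 5 under BHB, and BMF had 4 and 0 in control libraries against 0 and 0 under BHB. Both were below the filter, and the values from 0 to 8 do not separate the groups. BMF-AS1 had 68 and 64 counts in control libraries against 55 and 45 under BHB, both BHB libraries below both controls, and a log2 fold change of −0.36 (SE 0.39). It ranged from −0.56 without control replicate 1 to −0.10 without control replicate 2. MIR4435-2HG had 325 and 361 counts in control libraries against 375 and 421 under BHB. By CPM of all counts in the library it stood at 127 and 161 in control libraries against 165 and 188 under BHB, which do not overlap, whereas by TMM-scaled CPM the values 117 and 184 against 165 and 189 do. Its log2 fold change of 0.24 (SE 0.29) became −0.06 without control replicate 1 and 0.64 without control replicate 2. The microRNA genes MIR4435-1 and MIR4435-2 are features of their own in the table.

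Of the 10 members, 7 passed the filter: TNFRSF10A, BCL2L1 and all 5 opposite features. By the edgeR quasi-likelihood test with Benjamini-Hochberg adjustment over 9295 features, 0 of the 7 were called, against 0% of all features in either direction. Before adjustment, 1 of the 7 (TNFRSF10A-AS1) and 210 of all features had p under 0.05. DESeq2 also called 0 members, and 0 had p under 0.05 before adjustment. By limma-voom these numbers were 0 and 1. Log2 fold changes were positive for 3 members and negative for 4. TNFRSF10A-AS1 had both BHB libraries above both controls in TMM-scaled CPM, as did 15.1% of all tested features. BMF-AS1 and GGNBP1 had both below, as did 14% of all, but only narrowly. Control replicate 1 and BHB replicate 1 stood at 24.5 and 24.2 CPM for BMF-AS1 and at 71.7 and 70.1 CPM for GGNBP1. In CPM of all counts, where MIR4435-2HG also lay above, the background was 19.7% above and 13.8% below. Because the members were chosen with this contrast in view, nothing is read from these shares.

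**Figure D3:**
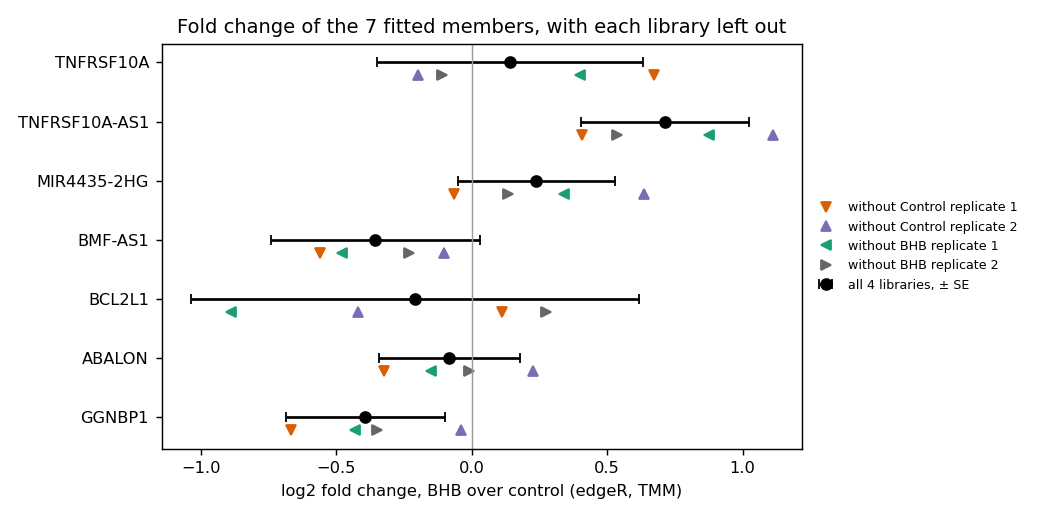
Log2 fold change of BHB over control (edgeR, TMM) for the 7 fitted members, with all 4 libraries (black circles, bars are the standard error) and with each library left out in turn (coloured triangles). TNFRSF10A-AS1 stays to the right of 0 and BMF-AS1 and GGNBP1 to the left, while TNFRSF10A, MIR4435-2HG, BCL2L1 and ABALON fall on both sides.

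The rest of the cell death pathway was described from 7 lists with 48 genes, TNFRSF10A, BCL2L1, BAK1, BCL2L11 and BMF included. All 48 were in the table, and 18 passed the filter. Of these, 0 were called in either direction; 8 had a positive and 10 a negative log2 fold change, with a median of −0.19 against −0.03 over all tested features. In TMM-scaled CPM both BHB libraries lay above both controls in 3 of the 18 and below in 1, beside 15.1% and 14% of all tested features. Control replicate 1 exceeded control replicate 2 in 11 of the 18, near the 62.0% of protein-coding features that did so (47.6% of all tested features).

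Among the other guardians, BCL2L2 (BCL-w) had 136 and 109 counts in control libraries against 122 and 121 under BHB, with a fold change of 0.05 on the log2 scale (SE 0.28). MCL1, a short-lived guardian, had 60 and 12 in control libraries against 15 and 17 under BHB, inside the control range. BCL2, BCL2A1 and BCL2L10 were at 0 in all libraries. Of the effectors, BOK had 38 and 11 counts in control libraries against 19 and 14 under BHB, and BAX 17 and 4 against 10 and 7. For both genes the control values enclosed the BHB values. Among BH3-only genes BID, which caspase-8 cleaves to link death receptors to mitochondria, had 31 and 36 in control libraries against 34 and 46 under BHB, and BAD had 14 and 15 against 14 and 11.

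On the receptor side, TNFRSF10B, the other death-inducing TRAIL receptor gene, had 62 and 25 counts in control libraries against 39 and 18 under BHB (log2 fold change −0.48, SE 0.55). TNFRSF25, a related death receptor, had 21 and 20 in control libraries against 39 and 31 under BHB, with both treated libraries above both controls and a log2 fold change of 0.81 (SE 0.51). The ligand genes FASLG and TNF and the decoy receptor gene TNFRSF10C were at 0 throughout. In the signalling complex below the receptors, the adaptor FADD had 9 and 9 counts in control libraries against 16 and 14 under BHB (0.77, SE 0.74 on the log2 scale). The initiator caspase CASP8 had 24 and 6 against 11 and 18, and the kinase gene RIPK1 had 54 and 40 against 47 and 29. CYCS, which encodes the cytochrome c released from mitochondria, varied most, with 1008 and 101 counts in control libraries against 365 and 349 under BHB. The mitochondrial protease gene HTRA2 had 25 and 27 against 20 and 13. Of the inhibitors of apoptosis, BIRC5 (survivin) had 42 and 10 in control libraries against 7 and 22 under BHB, and BIRC6 had 25 and 10 against 23 and 18.

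An excess of counts listed under the opposite feature was not particular to the 5 pairs. By GENCODE release 29, 23 of the 48 genes had at least 1 named feature of the table on the opposite strand, 30 such features in all, and 17 of the 30 held more counts than the cell death gene. Exons faced each other, with means that sum to at least 20 counts, in 18 pairings of 16 cell death genes, since CFLAR and HTRA2 each faced 2 features. The opposite feature was higher per kb in 14 of the 18, namely in all 5 pairs and in 9 of 13 others. The 2 features facing HTRA2, at 8.12 counts per kb, differed in this, with LOXL3 at 141 and AUP1, named after its value was seen, at 3.97. After ABALON, the opposite features with the most counts were themselves protein-coding genes. B3GNT4, facing the gene of the IAP antagonist DIABLO, averaged 1194.25 counts against 2.75 for DIABLO. LOXL3, facing HTRA2, averaged 639 counts and had 636 and 625 in control libraries against 632 and 663 under BHB. GPR137, facing BAD, had 1001 and 840 counts in control libraries against 617 and 503 under BHB, both below the controls, with a log2 fold change of −0.66 (SE 0.25).

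RHOBTB2, whose exons share 67 bases with the TRAIL receptor gene TNFRSF10B, had 320 and 317 counts in control libraries against 510 and 484 under BHB, a log2 fold change of 0.68 (SE 0.27). At both death-inducing TRAIL receptor loci the feature facing the receptor gene was higher in both BHB libraries. The log2 fold change was 0.71 for TNFRSF10A-AS1 and 0.68 for RHOBTB2. Both BHB libraries of TNFRSF10A and BHB replicate 1 of TNFRSF10B lay within the control range. In TMM-scaled CPM, 15.1% of all tested features also had both BHB libraries above both controls. B3GNT4 and GPR137, facing DIABLO and BAD, had both below, as did 14% of all. The TRAIL receptor loci were set side by side after the values were seen. Neither TNFRSF10A-AS1 nor RHOBTB2 passed the edgeR threshold over the whole table.

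**Figure D4:**
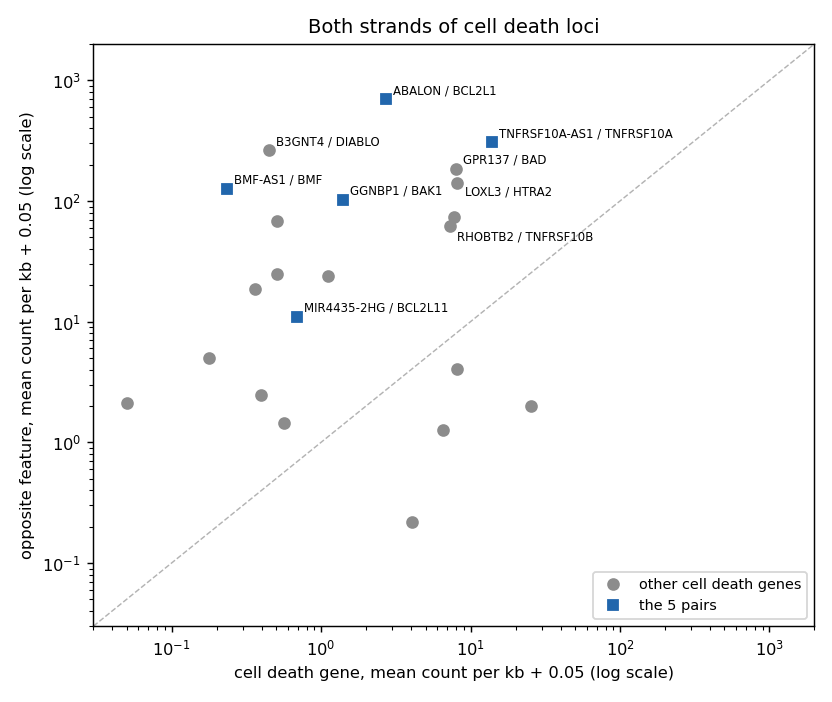
Mean count per kb of exon (plus 0.05, log scales) of the cell death gene (horizontal) and of the feature with exons facing it (vertical), with 1 point per pairing, blue squares for the 5 pairs and grey circles for other cell death genes; the dashed line marks equal values. All 5 pairs lie above the line, as do 9 of the 13 others whose means sum to at least 20 counts.

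For each fitted member the 2 named features with the most similar course over the 4 libraries were sought among those with a mean of at least 50 counts, by Euclidean distance between centred log2 CPM. These are likenesses over only 4 libraries and say nothing of shared control. TNFRSF10A-AS1 was closest to AGAP2 (distance 0.0746; 70 and 81 counts in controls, 115 and 141 with BHB) and ETFRF1 (0.0789), against a median distance of 0.942 to all candidates. TNFRSF10A itself was closest to other genes that were high in control replicate 1 and low in control replicate 2, NCBP1 (0.0692) and MED1 (0.123). BCL2L1 was closest to SGSM2 (0.216) and ATP2C1 (0.220), farther off than for any other member. The remaining nearest features were ZNF3 and NPAS2-AS1 for MIR4435-2HG, FARSA-AS1 and WDR20 for BMF-AS1, MZB1 and CHADL for ABALON, and TMEM140 and CCAR2 for GGNBP1, all at distances of at most 0.047.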

How the data were processed

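The file deposited by the authors is a single table of raw counts with 59385 features and the exon length of each, not normalized. The submitters' processing notes list the tools HISAT2 2.2.1, featureCounts 2.0.3, edgeR and limma and the builds GRCh38 and hg38. Not given in the sources used here are the annotation release, the strand setting and how reads matching several places were treated. The members and gene lists were chosen with earlier results of these data known.

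Counts were fitted over the whole table with edgeR 4.0.16 in R 4.3.3 (filterByExpr defaults, TMM, robust quasi-likelihood F-test, Benjamini-Hochberg adjusted p under 0.05), with no covariate. Fold changes are given as log2(BHB/control), and standard errors were derived from the F statistic. DESeq2 1.42.0, limma-voom 3.58.1, other scalings and filters, a replicate block and leaving out each library were alternatives. The procedure was tested on simulated data of 9295 features, 200 of them changed by 1.5, 2 or 4 fold. Of these changes, 43.1% of the 4-fold, 3.28% of the 2-fold and 0% of the 1.5-fold ones were called. Simulated libraries of a group shared the same mean, so the difference between the controls by kind of feature was not modelled. Positions were matched by name to GENCODE release 29. Total counts were between 2233711 and 2565080 per library; intervals cover counting error only. Replicates differed by more than sampling noise (chi-square per degree of freedom 12.6 for controls, 2.44 for BHB) and each was counted once. Named genes were all members, up to 3 genes of highest mean count per list, the 5 opposite features of highest mean count and the 2 nearest features of each fitted member. A few genes this rule or the marker lists name are not reported here.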

Additional observations from a re-analysis of the deposited data

How the results depend on the processing

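The 7 fitted members were refitted with another scaling, filter, tool or a replicate block. Sign and absence of a call held in 56 of 56 resulting estimates, 1 per member and setting. These estimates reuse the same 4 libraries and are not independent. The lowest adjusted p among them was 0.68, by edgeR with total counts in place of TMM. Leaving out 1 library changed more, and the cause was not tested. The group left with 1 library was then assumed to vary like the other group, so no call in such a fit is read as a result. The fits tested 9960 features without control replicate 1 and 10973 without control replicate 2. They tested 10744 without BHB replicate 1 and 10803 without BHB replicate 2. Among all features tested, edgeR called 582 up and 635 down without control replicate 1, 1035 and 791 without control replicate 2, and 0 and 0 without either BHB library, where 15 and 13 had an unadjusted p under 0.05 by edgeR. Log2 fold changes ran from −0.20 to 0.67 for TNFRSF10A, 0.41 to 1.11 for TNFRSF10A-AS1, −0.065 to 0.64 for MIR4435-2HG, −0.56 to −0.10 for BMF-AS1, −0.89 to 0.27 for BCL2L1, −0.32 to 0.23 for ABALON and −0.67 to −0.04 for GGNBP1. TNFRSF10A was at −0.20 without control replicate 2 and −0.11 without BHB replicate 2, and BCL2L1 at 0.11 without control replicate 1 and 0.27 without BHB replicate 2.

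The replicate numbers are not known to pair the libraries: over 9295 features the difference of replicates 1 and 2 correlated at −0.02 between the groups. With the replicate block 0 features were called over the whole table, and TNFRSF10A-AS1 had 0.74.

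The shift of the log2 ratio of opposite feature to cell death gene (BHB minus control, pseudocount 0.5) was 0.53 for TNFRSF10A, −1.06 for BCL2L11, 1.18 for BMF, 0.21 for BCL2L1 and 0.27 for BAK1. Leaving out 1 library gave −0.24 to 1.31, −3.18 to 1.06, −0.36 to 2.72, −0.31 to 0.73 and −0.46 to 0.99, so no direction was settled; 2 libraries against 2 allow no exact p under 0.33. With counts summed per group BMF had 2.77 and BCL2L11 turned to 0.054, and with a pseudocount of 2 they had 0.40 and −0.32. The count per kb of the opposite feature over that of the cell death gene, from counts summed over the libraries, was 22.1, 17.0, 685, 259 and 75.8, and as a plain count ratio 4.80, 87.2, 58.0, 117 and 59.5. Release 29 exon lengths gave 22.2, 44.3, 685, 204 and 75.8, which turns the order of the first 2. Leaving out 1 library gave 20.2 to 28.4, 12.8 to 24.997, 496 to 552, 232 to 308 and 64.2 to 109; without control replicate 1 BMF had no count and gave no ratio.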
